A study of Mus musculus with 12 samples.

Results

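The genes described here are 35 genes known for high levels in the endothelial cells that line brain vessels or in the pericytes around them. Each was taken from the platform annotation by its gene symbol, and a gene with several probe sets was to be represented by the one with the highest mean over the arrays. Of the 35 genes, 33 were measured, each by exactly 1 probe set that the annotation gives to that gene alone, out of 19938 genes in all. Ly6c1, a surface protein of endothelial cells and leukocytes, had only probe sets shared with another gene, and Ly6a, a related surface protein, was not in the annotation used here. The values are log2 levels, and levels are not compared between genes.

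Hippocampal RNA of 12 mice, each on its own array, fell into 4 groups of 3 mice. The Srf mutants carried a floxed Srf gene deleted on both alleles, and their littermates, labelled control or WT, were heterozygous for Srf according to the study's methods. All mice bore a tamoxifen-inducible Cre recombinase (CreERT2) under the Camk2a promoter, which is active in glutamatergic neurons of the forebrain, were injected with tamoxifen, and were on a C57/Bl6 background, male and female, and 7 to 10 weeks of age by the labels. The first group was Srf mutants given pilocarpine, a muscarinic agonist that elicits seizures, which had seizures without reaching a status epilepticus (SE), a prolonged seizure. The second group was Srf mutant controls, the third heterozygous mice that had been in SE for 40 min after pilocarpine, and the fourth heterozygous controls. Pilocarpine was given at 335 or 350 mg/kg after methyl scopolamine, which limits peripheral effects, with no dose per mouse in the labels, and both control groups received Ringer solution. The labels call both pilocarpine groups seizure mice, and the distinction by SE comes from the study's text. Genotype and SE therefore cannot be told apart wherever the pilocarpine effect of the mutants is set against that of the heterozygous mice. The time from pilocarpine to harvest is not given for the mutants without SE, so that a difference in time cannot be told apart there either.

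Brain endothelial cells are sealed to each other by tight junctions and carry selective transporters, and together these form the blood-brain barrier. Pericytes sit on the outer wall of capillaries within a shared basement membrane, are recruited through the receptor encoded by Pdgfrb, and help to keep the barrier closed. Endothelial growth and rest are steered by receptor tyrosine kinases for vascular endothelial growth factors (Flt1, Kdr) and for angiopoietins (Tek). Several of the 33 genes, among them Slc2a1, Bsg, Tjp1 and Mfsd2a, are made in other brain cells too, and in whole hippocampus fewer cells of a type and less RNA per cell cannot be told apart.

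Array medians over all probe sets lay between 6.78 and 6.86 (log2). Srf averaged 8.88 ± 0.042 in mutants with pilocarpine, 8.90 ± 0.089 in mutant controls, 10.21 ± 0.054 in heterozygous mice with SE and 9.57 ± 0.041 in heterozygous controls (log2, SD, n = 3 each). Fos, an immediate early gene of active neurons, reached 11.98 to 12.06 in heterozygous mice with SE, against 6.62 to 6.77 in heterozygous controls. In mutants Fos reached 9.58 to 9.95 with pilocarpine, against 6.79 to 7.36 in controls (log2). Xist, which marks females, was above 9 on 1 array of mutants with pilocarpine, on 2 of mutant controls, on 0 of heterozygous mice with SE and on 1 of heterozygous controls. Summed neuron markers spanned 15.91 to 16.01 and summed astrocyte markers 14.84 to 14.98 (log2) over the 12 arrays. Summed choroid plexus markers spread more, from 9.99 to 11.09 (log2), with the highest value in heterozygous control mouse 3.

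One array stood apart in these genes. The second heterozygous mouse with SE, called SE mouse 2 below, was the lowest of its group in 31 of the 33 genes (93.9%), against 32.8% of all tested probe sets. Its 33 genes lay on average 0.21 (log2) below their group means, and those of the other SE mice lay 0.11 above. Its Fos level of 11.98 was close to 12.02 and 12.06 in the other SE mice. Its summed perivascular fibroblast markers were 11.65 (log2), against 12.54 and 12.43 in the other SE mice and 12.55 to 12.65 in heterozygous controls, and the part of these cells in the result was not tested. A milder shift of the same kind was seen in mutant mouse 1 with pilocarpine, the lowest of its group in 25 of 33 genes (75.8%, against 25.8% of all probe sets), and in heterozygous control mouse 3, the lowest in 22 of 33 (66.7%, against 30.9%). SE differences of the 33 genes that moved by more than 1.5 times without SE mouse 2 are given with and without it. This mouse was singled out by these same genes, so that higher SE means without it follow, in most of them, from that choice. Calls made only without it are therefore a description and no separate support for a change.

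**Figure D1:**
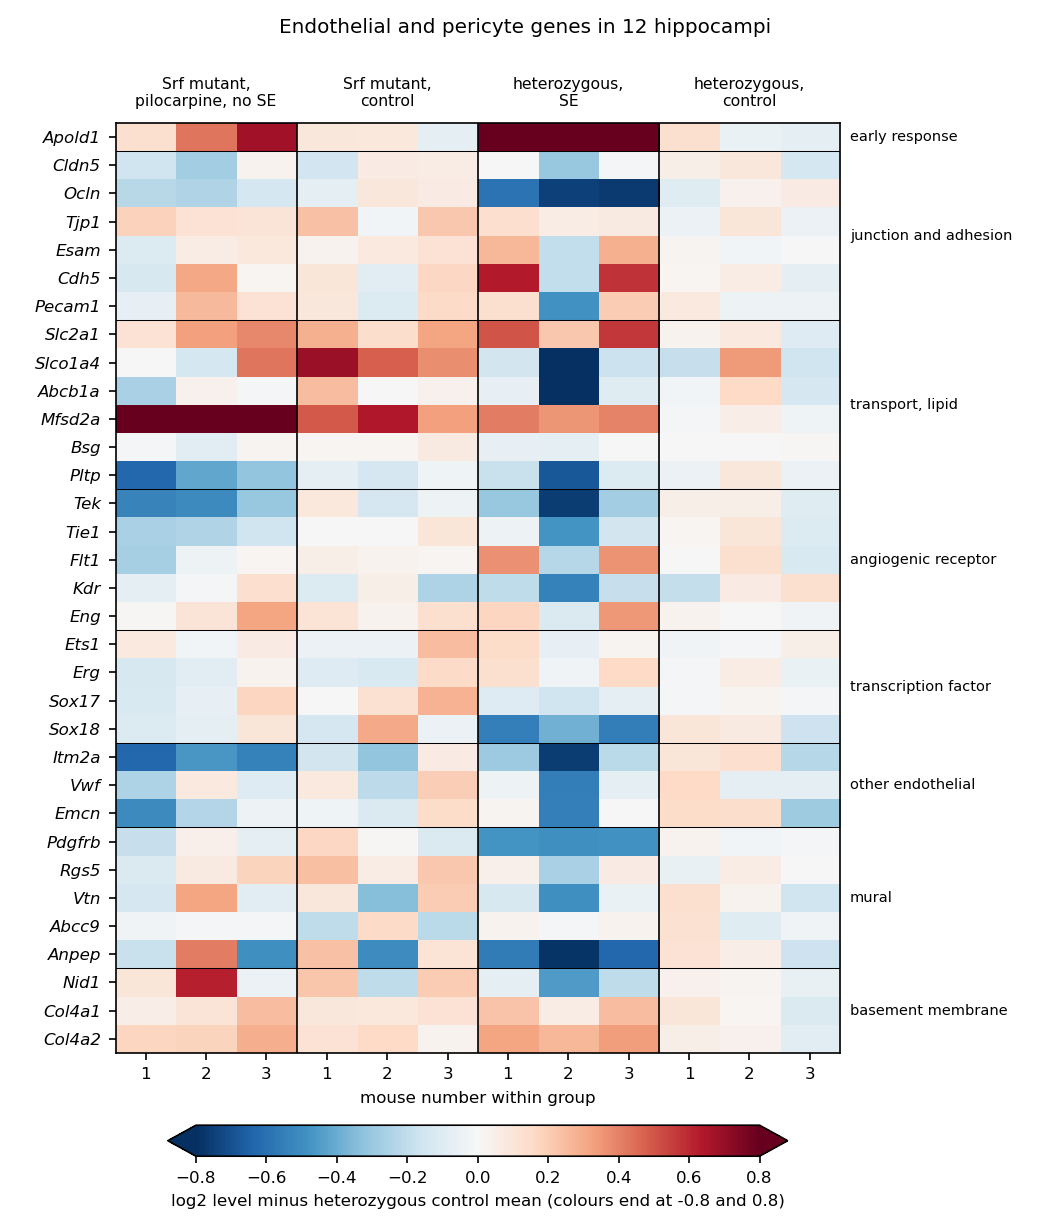
Heat map of the 33 genes (rows, grouped by role) in each of the 12 mice (columns, grouped by genotype and treatment), as the log2 level minus the mean of heterozygous controls. Red is higher and blue lower, colours end at -0.8 and 0.8 (log2), and SE mouse 2 is the column that is blue in most genes.

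Heterozygous mice with SE were compared with heterozygous controls to ask how vessel genes respond within a prolonged seizure. A probe set was called changed at an adjusted p below 0.05 in a limma fit over 23410 probe sets with a gene. Of the 33 genes, 4 were higher (12.1%, against 5.08% of all tested probe sets) and 4 were lower (12.1%, against 6.93%). The genes were chosen with earlier results of these data known, so that such shares, here and below, may in part follow from the choice. The genes that rose were Apold1, the glucose transporter gene Slc2a1, the lipid transporter gene Mfsd2a and the collagen gene Col4a2. The genes that fell were the tight junction gene Ocln, the angiopoietin receptor gene Tek, the transcription factor gene Sox18 and the pericyte receptor gene Pdgfrb. The median change of the 33 genes was -0.10 (log2), beside -0.026 over all probe sets tested. All 3 SE mice lay apart from all 3 heterozygous controls in the 4 genes that rose (12.1%, against 10.6% of all probe sets) and on the low side in 8 genes (24.2%, against 19.8%), which were the 4 that fell with Pltp, Sox17, Anpep and Nid1. At the study's stricter limits, an adjusted p under 0.001 and a fold of at least 2, only Apold1 was higher (3.03%, against 0.636% of all probe sets) and 0 of 33 genes were lower (against 0.0256%). Without SE mouse 2, 7 genes were higher (4.66% of all probe sets) and 4 lower (5.3%), and the median was -0.0025 beside -0.031.

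Apold1, an early response gene of the endothelium also known as Verge, changed the most of the 33 genes. In heterozygous mice it measured 11.32, 10.82 and 11.33 with SE, against 8.04, 7.86 and 7.84 in controls (log2). In mutants it measured 8.04, 8.34 and 8.58 with pilocarpine, against 8.01, 8.00 and 7.84 in controls (log2). All 3 SE mice were far above the other 9 mice, and the mutants with pilocarpine were above their controls by a margin that was narrow in 1 mouse. The rise in SE was 3.24 ± 0.144 (log2, ± standard error of the fit here and below), or 9.48-fold, with an adjusted p of 1.19e-08 in limma, and 3.41 without SE mouse 2. In mutants the difference was 0.37 ± 0.144 (log2) with an adjusted p of 0.238 in limma, so that it was not called. The difference between both effects was called at -2.87 ± 0.204 (log2, adjusted p = 4.64e-06 in limma).

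Over the 12 arrays the probe sets whose levels were most like those of Apold1 were those of Zbtb10 (Pearson r = 0.992), Plaur (0.991), Egr2 (0.990), Btg2 (0.989) and Rassf1 (0.989), given as a description over arrays that share groups. Egr2 is an immediate early transcription factor gene of neurons, Btg2 an early growth-arrest gene and Plaur the urokinase receptor gene. Their changes in SE ran from 1.12 (log2) for Zbtb10 to 4.05 for Egr2, and their changes in mutants with pilocarpine from 0.12 for Zbtb10 to 0.65 for Btg2. These genes were picked for a pattern like that of Apold1, so that the likeness of their changes follows from the choice.

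The start region of Apold1 is shown because it carried the largest change. It covers 250 bases before the start of the gene to 50 after it, from RefSeq on GRCm38.p6, chr6:134981751-134982050, plus strand, and capitals mark matches to the motifs searched.
Apold1: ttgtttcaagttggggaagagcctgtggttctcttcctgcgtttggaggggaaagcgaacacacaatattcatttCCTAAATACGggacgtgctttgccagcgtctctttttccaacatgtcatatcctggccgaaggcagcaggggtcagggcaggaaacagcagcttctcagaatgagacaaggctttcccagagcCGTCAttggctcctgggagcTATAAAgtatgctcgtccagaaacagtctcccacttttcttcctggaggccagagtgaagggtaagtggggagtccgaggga
The motifs, searched on both strands, were the CArG box, which SRF binds, the cAMP response element TGACGTCA and its part TGACG, and TATAAA. The capitals are, in order, a CArG box with at most 1 mismatch whose first base lies at -175 from the start, TGACG on the minus strand at -52, and TATAAA at -32. Such windows were at hand for 25 of the 35 genes, as 29 of 32851 windows. An exact CArG box was in 0 of the 29 windows and in 1.63% of all windows. With at most 1 mismatch it was in 9 of 29 (Apold1, Emcn, Eng, Erg, Kdr, Ocln, Pltp, Slco1a4 and Tek) and in 21.1% of all. TGACGTCA was in the Flt1 window (1.79% of all), TGACG, which lies within it, in those of Apold1, Flt1 and Itm2a (20.8% of all), and TATAAA in 7 of 29 (13.6% of all). These matches describe letters and not sites in use.

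**Figure D2:**
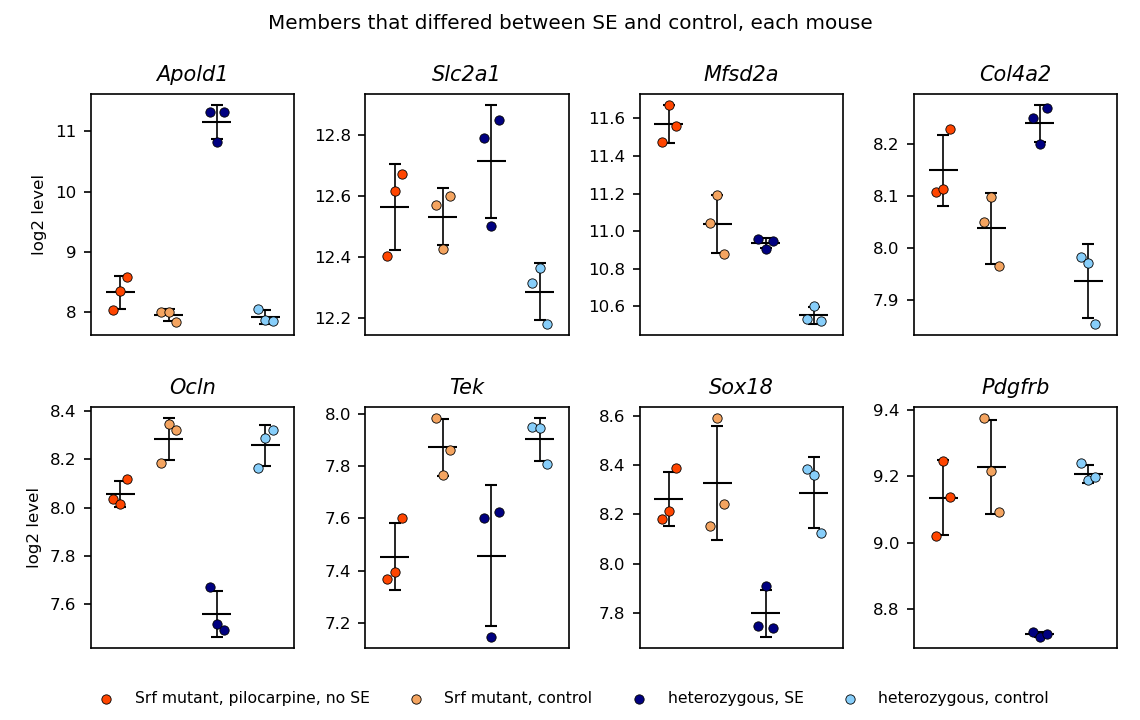
Log2 levels of the 8 genes called between heterozygous mice with SE and heterozygous controls, with 1 point per mouse and the mean ± SD of 3 mice as lines, on axes that do not start at 0. From left to right the groups are mutants with pilocarpine, mutant controls, heterozygous mice with SE and heterozygous controls. The 3 SE mice lie apart from the 3 heterozygous controls in all 8 genes.

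Among 6 junction and adhesion genes, Ocln was the only one called. It encodes occludin, a membrane protein of tight junctions. In heterozygous mice it measured 7.67, 7.51 and 7.49 with SE, against 8.16, 8.29 and 8.32 in controls (log2). In mutants it measured 8.03, 8.02 and 8.12 with pilocarpine, against 8.19, 8.35 and 8.32 in controls (log2). Both pilocarpine groups were below their controls without overlap, and the SE mice were the lowest of all. Ocln fell by 0.70 ± 0.064 (log2) in SE, or 1.62-fold, with an adjusted p of 1.32e-05 in limma. The difference in mutants was -0.23 ± 0.064 (adjusted p = 0.0958 in limma, not called), and the effects differed by 0.47 ± 0.091 (log2, adjusted p = 0.0122 in limma).

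Cldn5, the main claudin of the brain endothelium, measured 9.79, 9.48 and 9.77 with SE, against 9.83, 9.87 and 9.64 in heterozygous controls (log2). In mutants it was 9.62, 9.51 and 9.81 with pilocarpine, against 9.63, 9.85 and 9.84 in controls (log2). The groups overlapped in both genotypes, and the SE difference was -0.10 (log2, 95% interval -0.32 to 0.12, adjusted p = 0.618 in limma), or -0.0025 without SE mouse 2. Pecam1, an adhesion molecule at endothelial contacts, measured 7.76, 7.15 and 7.84 with SE, against 7.72, 7.59 and 7.60 in heterozygous controls (log2), and 7.57, 7.90 and 7.75 in mutants with pilocarpine, against 7.73, 7.53 and 7.79 in mutant controls. Its 2 higher SE mice were above the heterozygous controls and SE mouse 2 was below them, with a difference of -0.05 (95% interval -0.37 to 0.27, adjusted p = 0.891 in limma) that turned to 0.17 (adjusted p = 0.349) without SE mouse 2.

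Cdh5, the cadherin of endothelial adherens junctions, showed the same split among SE mice, with 9.35, 8.52 and 9.30, against 8.74, 8.78 and 8.65 in heterozygous controls (log2). Its difference was 0.34 ± 0.180 (adjusted p = 0.292 in limma) with all mice and 0.61 ± 0.110 (adjusted p = 0.00413 in limma) without SE mouse 2. Esam, an endothelial adhesion molecule, measured 8.84, 8.37 and 8.85 with SE, against 8.60, 8.55 and 8.57 in heterozygous controls. It differed by 0.12 (adjusted p = 0.573 in limma) with all mice and by 0.27 (adjusted p = 0.0128) without that mouse. Tjp1, a scaffold beneath tight junctions, differed by 0.09 (log2, adjusted p = 0.485 in limma).

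Among 6 transporter and barrier lipid genes, Slc2a1 and Mfsd2a were called in SE. Slc2a1 encodes GLUT1, which carries glucose across the barrier. It measured 12.79, 12.50 and 12.85 with SE, against 12.31, 12.36 and 12.18 in heterozygous controls (log2). In mutants it was 12.40, 12.62 and 12.67 with pilocarpine, against 12.57, 12.43 and 12.60 in controls (log2). The SE mice were all above the heterozygous controls, while the mutant groups overlapped. The SE rise was 0.43 ± 0.095 (log2, adjusted p = 0.0104 in limma), and 0.53 without SE mouse 2. The call was lost when SE mouse 3 or heterozygous control mouse 3 was left out, with adjusted p up to 0.0533 in limma.

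Mfsd2a, a transporter of lysophospholipids that is needed for a tight barrier, was called in 3 comparisons. In mutants it measured 11.47, 11.67 and 11.56 with pilocarpine, against 11.04, 11.19 and 10.88 in controls (log2). In heterozygous mice it measured 10.96, 10.90 and 10.95 with SE, against 10.53, 10.60 and 10.52 in controls (log2). The highest group was the mutants with pilocarpine and the lowest the heterozygous controls, without overlap with any other group, while the mutant controls and the SE mice lay between them and overlapped. The rise was 0.53 ± 0.072 in mutants with pilocarpine (log2, adjusted p = 0.0029 in limma) and 0.39 ± 0.072 in SE (adjusted p = 0.00348). These effects differed by 0.15 ± 0.102 (log2, adjusted p = 0.557 in limma, 95% interval -0.08 to 0.37). Mutant controls were 0.49 ± 0.072 higher than heterozygous controls (log2, adjusted p = 0.0314 in limma), a call that was lost in 14 of 23 alternative fits, with adjusted p up to 0.199.

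The other 4 genes of this role had no call. Slco1a4, an organic anion transporter, and Abcb1a, which encodes the efflux pump P-glycoprotein, had SE differences of -0.37 and -0.33 (log2, adjusted p = 0.28 and 0.269 in limma). In both, SE mouse 2 was the lowest of the 12 mice, at 7.85 for Slco1a4 and 7.80 for Abcb1a, and without it the differences were -0.16 and -0.079 (log2, adjusted p = 0.672 and 0.73 in limma). Pltp, a phospholipid transfer protein, was lower in all 3 SE mice than in any heterozygous control, at -0.32 (adjusted p = 0.128), or -0.14 (adjusted p = 0.347) without SE mouse 2. It was also lower in all 3 mutants with pilocarpine than in any mutant control, at -0.37 (log2, adjusted p = 0.173 in limma). Bsg, basigin, differed by -0.05 (log2, adjusted p = 0.555 in limma).

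Of 5 angiogenic receptor genes, Tek fell in SE. It encodes TIE2, the angiopoietin receptor that keeps vessels at rest. It measured 7.60, 7.15 and 7.63 with SE, against 7.95, 7.95 and 7.81 in heterozygous controls, and 7.37, 7.39 and 7.60 in mutants with pilocarpine, against 7.99, 7.77 and 7.86 in mutant controls (log2). Both pilocarpine groups were below both control groups in every mouse. Tek fell by 0.45 ± 0.114 in SE (log2, adjusted p = 0.0227 in limma) and its difference in mutants was -0.42 ± 0.114 (adjusted p = 0.0886, not called). The effects differed by 0.03 ± 0.161 (log2, adjusted p = 0.966 in limma). Without SE mouse 2, limma called Tek in both genotypes, at -0.29 (adjusted p = 0.0466) in SE and at -0.42 (adjusted p = 0.0164) in mutants, while without heterozygous control mouse 1 or 2 the SE call was lost, with adjusted p up to 0.0762.

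Tie1, its partner receptor, had differences of -0.22 in SE and -0.25 in mutants (log2, adjusted p = 0.162 and 0.21 in limma), and its SE difference was -0.095 (adjusted p = 0.462) without SE mouse 2. Kdr, which encodes the main signalling receptor for vascular endothelial growth factor, differed by -0.31 in SE (adjusted p = 0.0995), or by -0.20 (adjusted p = 0.304) without that mouse. Flt1, another receptor of that factor, measured 9.80, 9.21 and 9.80 with SE, against 9.43, 9.57 and 9.31 in heterozygous controls (log2). It differed by 0.17 (adjusted p = 0.52 in limma) with all mice and by 0.36 (adjusted p = 0.0177) without SE mouse 2. Eng, endoglin, a co-receptor for transforming growth factor beta, differed by 0.13 (log2, adjusted p = 0.483 in limma), or by 0.26 (adjusted p = 0.0779) without it.

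Among 4 endothelial transcription factor genes, Sox18 fell in SE. Sox18 measured 7.74, 7.91 and 7.74 with SE, against 8.38, 8.36 and 8.12 in heterozygous controls, and 8.18, 8.22 and 8.39 in mutants with pilocarpine, against 8.15, 8.59 and 8.24 in mutant controls (log2). The SE mice were the 3 lowest of all 12, and SE mouse 2 was here the highest of its group. The SE difference was -0.49 ± 0.108 (log2, adjusted p = 0.00935 in limma), or -0.55 without SE mouse 2. The difference between the effects of both genotypes was 0.42 ± 0.153 (log2, adjusted p = 0.177 in limma) and was not called. Sox17, of the same subgroup of factors, Erg and Ets1, both of the ETS family, had SE differences of -0.12, 0.09 and 0.04 (log2), with adjusted p of 0.431 or more in limma, and for Erg and Ets1 these were 0.14 and 0.085 without SE mouse 2.

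The 3 other endothelial genes measured, Itm2a, Vwf (von Willebrand factor, a clotting protein) and Emcn (endomucin), had SE differences of -0.42, -0.22 and -0.18 (log2), none of them called. Without SE mouse 2 the differences were -0.25 for Itm2a, -0.057 for Vwf and 0.0081 for Emcn, so that all 3 moved toward 0 and the sign of Emcn turned. Itm2a, a membrane protein, also differed by -0.42 in mutants with pilocarpine, where all 3 mice were below the mutant controls (adjusted p = 0.173 in limma).

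Of 5 mural genes, Pdgfrb fell in SE. It measured 8.73, 8.72 and 8.73 with SE, against 9.24, 9.19 and 9.20 in heterozygous controls (log2). In mutants it measured 9.02, 9.25 and 9.14 with pilocarpine, against 9.38, 9.22 and 9.09 in controls (log2). The SE mice were nearly equal and below all other 9 mice, while the mutant groups overlapped. The SE difference was -0.48 ± 0.070 (log2, adjusted p = 0.000559 in limma), and without SE mouse 2 it was -0.48 too. The effects of both genotypes differed by 0.39 ± 0.099 (log2, adjusted p = 0.0505 in limma), just outside the limit for a call, and over the alternatives the adjusted p ran from 0.0149 to 0.109.

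The other pericyte genes were not called. Rgs5, a regulator of G-protein signalling, differed by -0.05 in SE, Vtn, the secreted protein vitronectin, by -0.22, and Abcc9, a subunit of potassium channels, by 0.01 (log2, adjusted p = 0.811, 0.454 and 0.955 in limma). Without SE mouse 2 they differed by 0.054, -0.090 and 0.027, so that the sign of Rgs5 turned. Anpep, aminopeptidase N, measured 7.27, 7.05 and 7.20 with SE, against 7.94, 7.88 and 7.66 in heterozygous controls (log2), a difference of -0.66 ± 0.211 without overlap that was not called (adjusted p = 0.0655). In mutants Anpep spread from 7.34 to 8.24 with pilocarpine, against 7.33 to 8.07 in controls (log2). The summed perivascular fibroblast markers ranged from 12.34 to 12.97 in mutants with pilocarpine, from 11.69 to 12.75 in mutant controls, from 11.65 to 12.54 in SE mice and from 12.55 to 12.65 in heterozygous controls (log2), with none of 7 called in SE and all 7 differences negative. Their part in the Anpep and Pdgfrb values was not tested.

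Of 3 basement membrane genes, Col4a2 rose in SE. Col4a1 and Col4a2 encode the chains of the collagen IV network and are neighbours read from opposite strands. Col4a2 measured 8.25, 8.20 and 8.27 with SE, against 7.98, 7.97 and 7.85 in heterozygous controls, and 8.11, 8.11 and 8.23 in mutants with pilocarpine, against 8.05, 8.10 and 7.96 in mutant controls (log2). Both pilocarpine groups were above their controls without overlap. The difference was 0.30 ± 0.054 in SE (log2, adjusted p = 0.00236 in limma) and 0.11 ± 0.054 in mutants (adjusted p = 0.359). Col4a1 measured 7.97, 7.80 and 7.99 with SE, against 7.84, 7.76 and 7.63 in heterozygous controls, and 7.80, 7.85 and 7.99 in mutants with pilocarpine, against 7.84, 7.83 and 7.86 in mutant controls (log2). It differed in SE by 0.18 ± 0.069 (log2, adjusted p = 0.13 in limma) with overlap, and Nid1, which encodes the linker nidogen, by -0.24 (adjusted p = 0.416), or by -0.14 (adjusted p = 0.715) without SE mouse 2.

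The start region of Col4a2 is shown because the pair shares it. It is chr8:11312555-11312854 on the plus strand of GRCm38.p6, from RefSeq, with 250 bases before the start and 50 after it, and the capitals are the 78 bases that the window of Col4a1 also covers on the minus strand.
Col4a2: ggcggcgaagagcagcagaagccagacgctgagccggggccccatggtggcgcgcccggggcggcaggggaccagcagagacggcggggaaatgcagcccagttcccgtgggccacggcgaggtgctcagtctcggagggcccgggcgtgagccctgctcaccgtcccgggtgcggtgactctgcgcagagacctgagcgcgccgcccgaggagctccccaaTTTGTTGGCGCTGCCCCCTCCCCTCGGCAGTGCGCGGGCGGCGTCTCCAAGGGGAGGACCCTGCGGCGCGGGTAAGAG
The starts of both genes lie 21 bases apart.

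**Figure D3:**
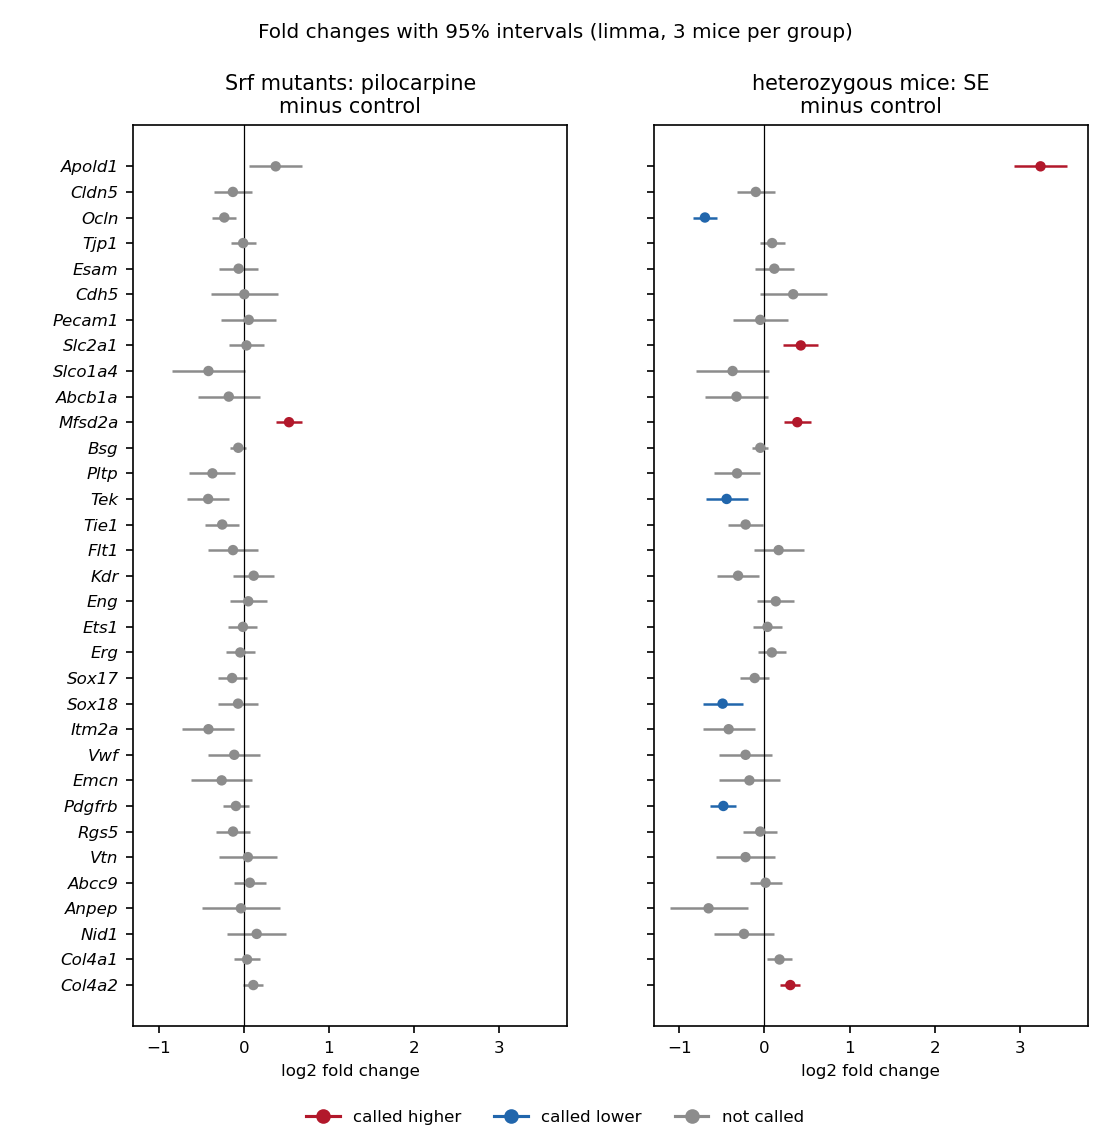
Log2 fold changes of the 33 genes (rows, by role) in Srf mutants, as pilocarpine minus control (left), and in heterozygous mice, as SE minus control (right), with 95% intervals from limma. Genes called are in colour. Mfsd2a is the only gene called in mutants, at 0.53, and Apold1 lies far from the rest in SE, at 3.24.

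In Srf mutants, pilocarpine without SE was compared with no pilocarpine. Mfsd2a was the only 1 of 33 genes called higher (3.03%, against 0.871% of all tested probe sets), and 0 were called lower in limma (against 0.965%). At an unadjusted p below 0.05, limma counted 2 higher (6.06%, against 5.66% of all probe sets), Apold1 and Mfsd2a, and 5 lower (15.2%, against 9.16%), Ocln, Pltp, Tek, Tie1 and Itm2a. At the stricter limits 0 of 33 genes were higher (against 0.0726%). Without overlap between the groups were 3 higher genes (9.09%, against 7.04% of all probe sets) and 6 lower genes (18.2%, against 11.4%). The median change was -0.061 (log2), beside -0.0036 over all probe sets. With SE mouse 2 out of the fit, which enters here only through the shared estimate of spread, Pltp at -0.37 (adjusted p = 0.0316) and Tek were called lower in limma (0.978% of all probe sets), and Mfsd2a higher (0.935%).

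Mutant controls were compared with heterozygous controls to ask whether loss of Srf in neurons goes with other vessel gene levels at rest. Mfsd2a was called higher, 1 of 33 genes (3.03%, against 0.0384% of all probe sets), and 0 were called lower in limma (against 0.0812%), with 3 higher (Slc2a1, Slco1a4 and Mfsd2a, 9.09%, against 4.33% of all probe sets) and 0 lower (against 4.4%) at an unadjusted p below 0.05. Mutant controls were above heterozygous controls without overlap in 7 genes (21.2%, against 6.1% of all probe sets), namely Esam, Slc2a1, Slco1a4, Mfsd2a, Bsg, Eng and Rgs5, and below them in 0 genes (against 7.46%). Slco1a4 differed the most of these, at 0.51 (log2, adjusted p = 0.506 in limma), with 9.35, 9.14 and 9.03 in mutant controls, against 8.48, 9.00 and 8.50 in heterozygous controls. Bsg, Esam and Eng differed by only 0.035, 0.074 and 0.090 (log2). The 33 genes varied together within groups, as given below, so that these 7 are not 7 separate results. By Xist, more of the mutant controls than of the heterozygous controls were female. The median difference was 0.035 (log2), beside -0.0071 over all probe sets. Without SE mouse 2, the Mfsd2a difference just missed the limit (adjusted p = 0.0506 in limma), and 0 genes were called (against 0.0214% of all probe sets higher and 0.0427% lower).

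The effect of pilocarpine in mutants differed from that of SE in heterozygous mice in 2 of 33 genes. Ocln was higher (3.03%, against 1.47% of all probe sets) and Apold1 lower (3.03%, against 2.12%) in the test of the difference. At the stricter limits Apold1 was lower (against 0.376%) and 0 genes were higher (against 0.0299%). The median of that difference was -0.026 (log2), beside 0.020 over all probe sets. Without SE mouse 2, Esam (-0.33), Slc2a1 (-0.50) and Flt1 (-0.49) joined Apold1 (-3.04) as lower, with adjusted p of 0.0467, 0.0351 and 0.0384 for the first 3 in limma (2.17% of all probe sets), and Ocln stayed higher (1.2%).

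**Figure D4:**
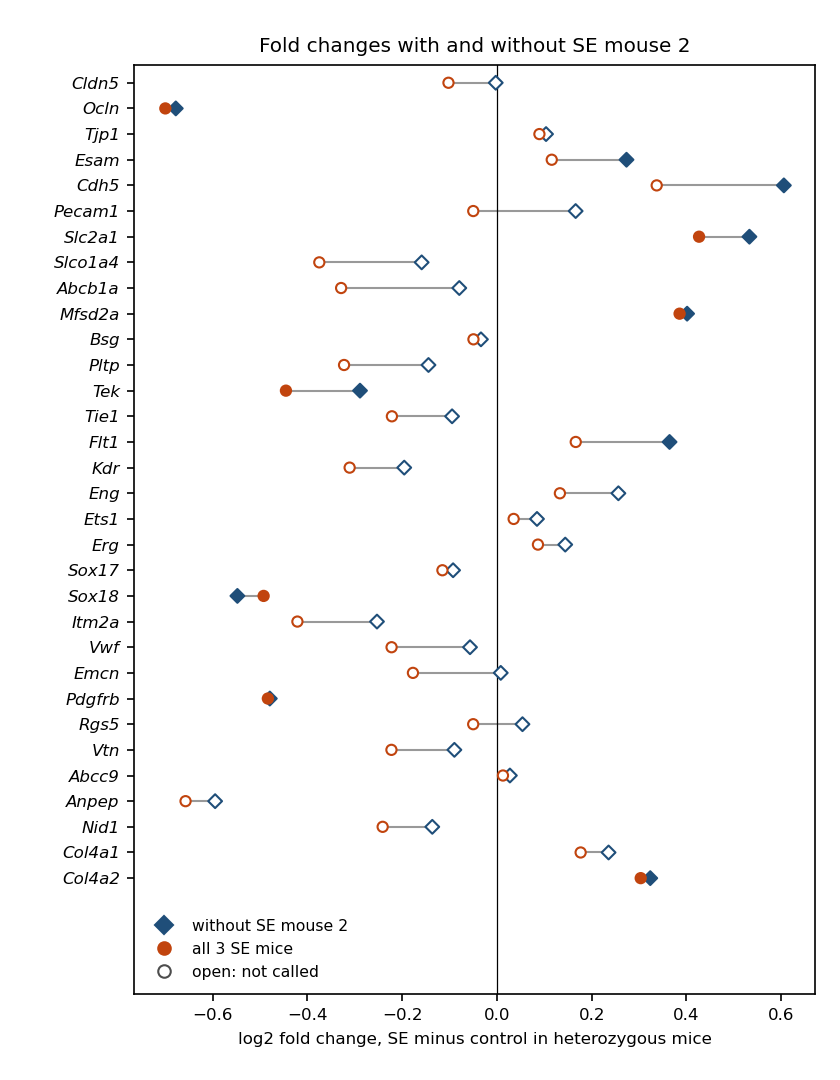
Log2 fold changes of 32 genes, as SE minus control in heterozygous mice, without SE mouse 2 (diamonds) and with all 3 SE mice (circles), where filled symbols are called and Apold1 is off the scale. Esam, Cdh5 and Flt1 are called only without that mouse, while Ocln, Sox18 and Pdgfrb move little.

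Within groups the 33 genes varied together. After removal of group means, the mean correlation between pairs of them was 0.379 over the 12 arrays, beside 0.0125 for all 19938 genes. This is a description over arrays among which SE mouse 2 lies far out. The closest pairs were Cdh5 with Pecam1 (r = 0.965), Pltp with Flt1 (0.964) and Abcb1a with Flt1 (0.963). The genes least tied to the others were Sox18 (mean r = -0.0906), Abcc9 (-0.053), Pdgfrb (0.0771), Mfsd2a (0.0819) and Ocln (0.1). Of these 5, Sox18, Pdgfrb, Mfsd2a and Ocln were among the 8 of 33 genes called in SE (against 5.08% of all probe sets higher and 6.93% lower). The next least tied, Tjp1 (0.106), Anpep (0.124), Ets1 (0.203) and Bsg (0.206), were not called in SE. A link between these correlations and the calls was not tested.

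A further 90 vascular genes from 5 lists, 86 of them measured, were read in the same fit. They too were chosen with earlier results of these data known, so that their shares of calls may in part follow from the choice. The list names give roles, and in whole hippocampus the cells behind a change in these genes cannot be told. In SE, 10 were higher (11.6%, against 5.08% of all probe sets), namely Nrp2, Dll4, Adm, Edn1, Slc3a2, Slc16a1, Thbd, Plat, Cspg4 and Lamc1. The 5 that were lower (5.81%, a smaller share than the 6.93% of all probe sets) were Hey1, Tgfbr2, Jam3, Apcdd1 and Axin2. The call of Nrp2, at 0.28 (log2, adjusted p = 0.0482 in limma), was lost in 14 of 23 alternatives, with adjusted p up to 0.184. The 86 genes had a median of 0.033 (log2) beside -0.026 over all probe sets. Among 27 genes of angiogenic ligands and signals, 4 rose and 2 fell. Edn1, the vasoconstrictor endothelin, measured 7.12, 6.34 and 7.49 with SE, against 6.13, 5.97 and 6.08 in heterozygous controls (log2), a rise of 0.93 (adjusted p = 0.0115 in limma), or 1.25 without SE mouse 2. All 3 SE mice were above the controls, SE mouse 2 by the least. The heterozygous controls and SE mouse 2 lay below the array medians here, and Edn1 was not in the fit of probe sets above the median level. Over the alternatives its adjusted p in limma ran up to 0.0498. Dll4, a Notch ligand of sprouting vessels, measured 7.93, 7.62 and 8.11 with SE, against 7.04, 6.92 and 7.03 in heterozygous controls, a rise of 0.89 (log2, adjusted p = 0.0002). In mutants it measured 6.87, 6.72 and 6.98 with pilocarpine, against 6.81, 7.08 and 6.84 in controls (log2), and the effects differed by -0.93 (adjusted p = 0.00542 in limma). Adm, the vasodilator adrenomedullin, rose by 0.74 (adjusted p = 0.00101), and Hey1, a Notch target gene, fell by 0.41 (log2, adjusted p = 0.000381 in limma).

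Among 23 other barrier genes, 2 rose and 3 fell in SE. Slc16a1, which encodes the lactate and ketone transporter MCT1, measured 11.37, 11.72 and 11.75 with SE, against 9.89, 9.92 and 9.89 in heterozygous controls (log2). In mutants it measured 10.18, 10.21 and 10.04 with pilocarpine, against 9.65, 9.94 and 9.71 in controls (log2). The SE mice stood above all others, with a rise of 1.71 (adjusted p = 1.49e-07 in limma) and a difference between the genotypes' effects of -1.34 (adjusted p = 0.000129). Slc3a2, an amino acid transporter chain, rose by 0.30 (adjusted p = 0.000198). Apcdd1 and Axin2, target genes and inhibitors of Wnt signalling, which builds the barrier, fell by 0.70 and 0.46 (log2, adjusted p = 4.53e-05 and 7.63e-05 in limma). Axin2 measured 7.51, 7.43 and 7.47 with SE, against 7.95, 7.88 and 7.97 in heterozygous controls, and 7.84, 7.79 and 7.94 in mutants with pilocarpine, against 7.81, 7.93 and 7.93 in mutant controls. Its effects differed between genotypes by 0.43 (log2, adjusted p = 0.00607 in limma). Jam3, a junctional adhesion molecule, fell by 0.31 (adjusted p = 0.0103).

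Of 8 genes of endothelial activation, Plat, the tissue plasminogen activator, rose by 0.82 (log2, adjusted p = 0.000577 in limma) and Thbd, the anticoagulant thrombomodulin, by 0.84 (adjusted p = 0.0306), the second of these lost in 9 of 23 alternatives, with adjusted p up to 0.119. Of 15 other mural genes, Cspg4, the pericyte proteoglycan NG2, which oligodendrocyte precursors carry too, rose by 0.31 (adjusted p = 0.0182), and was not called without SE mouse 1, without SE mouse 2 or without any 1 of the 3 heterozygous controls (adjusted p up to 0.0618). Of 13 other basement membrane genes, Lamc1, a laminin chain, rose by 0.48 (adjusted p = 0.000299). In mutants with pilocarpine, limma called Icam1, a leukocyte adhesion molecule, higher by 0.45 (adjusted p = 0.0366), Lamc1 higher by 0.28 (adjusted p = 0.0462) and Apcdd1 lower, at -0.33 (adjusted p = 0.0456), each of them lost in 12 or more of 23 alternatives. These were 2.33% of the 86 genes higher (against 0.871% of all probe sets) and 1.16% lower (against 0.965%). Between mutant and heterozygous controls, limma called 0 of the 86 genes, with 3 higher (3.49%, against 4.33% of all probe sets) and 4 lower (4.65%, against 4.4%) at an unadjusted p below 0.05.

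**Figure D5:**
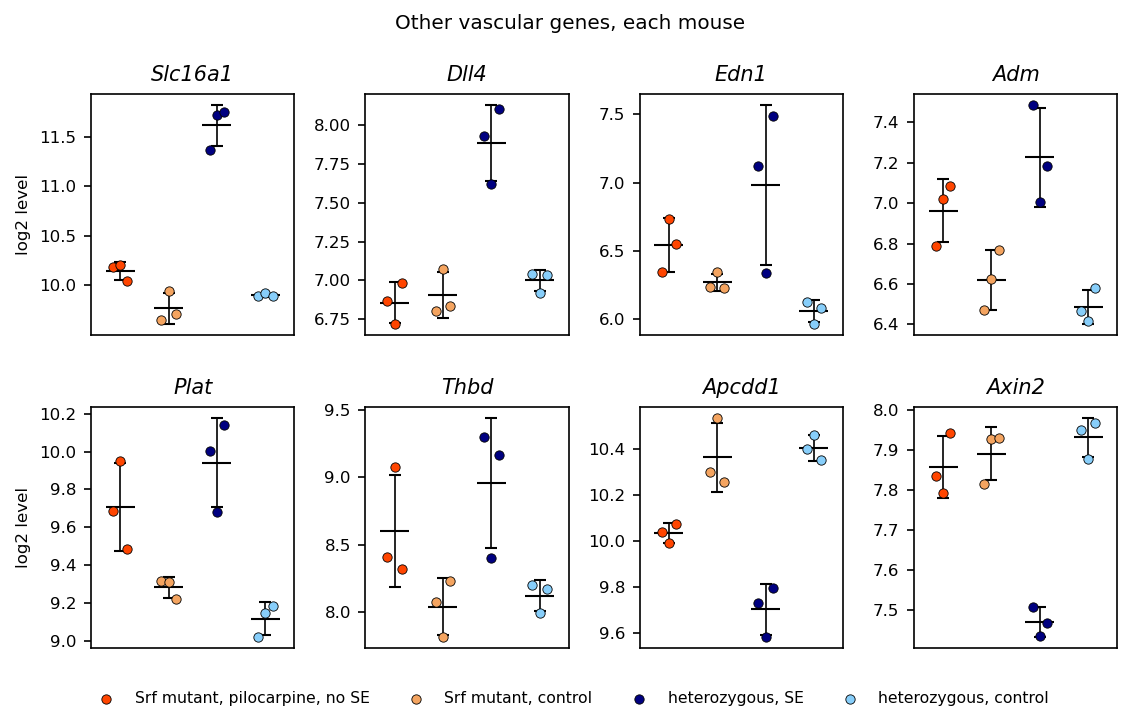
Log2 levels of 8 vascular genes outside the 33, with 1 point per mouse and the mean ± SD of 3 mice as lines, on axes that do not start at 0. The order of groups is mutants with pilocarpine, mutant controls, heterozygous mice with SE and heterozygous controls. Slc16a1 and Dll4 are highest in the SE mice, and Apcdd1 and Axin2 lowest.

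Few markers of other cells were called in SE, 0% of 43 higher (against 5.08% of all probe sets) and 4.65% lower (against 6.93%). Of 7 red blood cell markers listed, only 1 was measured. None of 8 neuron, 7 astrocyte, 5 oligodendrocyte, 8 choroid plexus, 7 perivascular fibroblast and 1 red blood cell markers was called by limma, and 2 of 7 microglia markers, Cx3cr1 and P2ry12, were lower, at -0.19 and -0.23 (log2, adjusted p = 0.0264 and 0.027). These calls were lost in 7 and 8 of 23 alternatives, with adjusted p up to 0.106 and 0.0976. At an unadjusted p below 0.05, limma counted 0 of all 43 such markers higher (against 8.71% of all probe sets) and 4 lower (9.3%, against 15.1%). In mutants with pilocarpine, 1 of 8 choroid plexus markers, Sostdc1, was called higher in limma, at 7.83, 7.70 and 7.78, against 7.35, 7.50 and 7.26 in mutant controls (log2, adjusted p = 0.0409), a call lost in 13 of 23 alternatives, with adjusted p up to 0.145. Of the 43 markers, 2.33% were called higher there (against 0.871% of all probe sets) and 0% lower (against 0.965%). At an unadjusted p below 0.05, 4 of the 43 markers were higher there (9.3%, against 5.66%) and 6 lower (14.0%, against 9.16%). All 5 oligodendrocyte markers had negative differences in mutants with pilocarpine, none of them called, with a median of -0.28 (log2) beside -0.0036 over all probe sets. Their summed levels ranged from 13.48 to 13.89 in mutants with pilocarpine, against 13.95 to 13.98 in mutant controls (log2), without overlap, and from 13.80 to 13.91 in SE mice, against 13.83 to 14.09 in heterozygous controls, with overlap. The part of these cells in the values of the 33 genes was not tested.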

How the data were processed

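Hippocampal RNA of 12 mice was hybridised to Affymetrix Mouse Gene 1.0 ST arrays. Per the submitters' processing notes, the authors used Affymetrix Expression Console and robust multiarray average (RMA), and deposited log2 values for 35556 probe sets, which were not scaled again. The platform annotation gave a gene for 23410 of them, and these were tested. limma 3.58.1 in R 4.3.3 (lmFit, eBayes) was fitted with a mean for each of 4 groups of 3 arrays and no block, and p values were adjusted over all 23410 probe sets by the Benjamini-Hochberg method, with calls at 0.05. The number of arrays limits the precision. Files were read with Python 3.11.15 and pandas 2.3.3, and the fit was tested on simulated data. Alternatives covered the prior, dim probe sets, scaling, weights per array, which arrays entered, how a gene with several probe sets was summarised, the whole table, the study's limits (adjusted p under 0.001 and 2-fold), Xist as a covariate, a replicate block and each array left out; a rule of no overlap between groups was added after seeing the data. Members and lists were chosen with earlier results of these data known. By the rule for named genes, every array is given for Apold1, Cldn5, Pecam1, Pdgfrb, Col4a1 and each called member, and up to 4 called genes are named per other list and comparison; Nrp2, Tgfbr2, Slc3a2, Cx3cr1, P2ry12, Sostdc1 and arrays of further members are given outside it, after their values were seen. The study also had mutants with SE, which were not used here.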

Additional observations from a re-analysis of the deposited data

Results flagged for a closer look

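The limma test of the difference itself set the effect of pilocarpine in Srf mutants against that of SE in heterozygous mice. It called 6 genes among the 33 genes, the 86 other vascular genes and the 43 markers of other cells. The mutant effect minus the heterozygous effect was -2.87 (log2) for Apold1, 0.47 for Ocln, -0.93 for Dll4, -1.34 for Slc16a1, 0.43 for Axin2 and 0.51 for Sostdc1. Fos and Srf, read only as checks, were called in this test too, at -2.62 and -0.66 (log2, adjusted p = 2.47e-06 and 0.000236 in limma). Of all tested probe sets, 1.47% were called higher and 2.12% lower in this test. Among the 33 genes these shares were 3.03% and 3.03%, and among the 86 other vascular genes 1.16% and 2.33%. Among the 43 markers of other cells they were 2.33% and 0%. For Apold1 the separate effects were 0.37 in mutants and 3.24 in heterozygous mice, for Slc16a1 they were 0.37 and 1.71, and for Dll4 -0.05 and 0.89. For Ocln they were -0.23 in mutants and -0.70 in heterozygous mice, for Axin2 -0.03 and -0.46, and for Sostdc1 0.40 and -0.11. The mutants had no SE, so that genotype and SE cannot be told apart in these differences. The first 5 kept their call in every alternative fit at the 0.05 limit, and Sostdc1 lost it in 13 of 22 alternatives, the limits of the study among them, with adjusted p up to 0.112.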

How the results depend on the processing

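With each of 12 arrays left out in turn, the number of the 33 genes called in SE ranged from 3 to 7 higher and from 3 to 5 lower, in mutants with pilocarpine it stayed at 1 higher and ranged from 0 to 2 lower, between both controls it ranged from 0 to 1 higher and stayed at 0 lower, and for the difference of effects it ranged from 1 to 2 higher and from 1 to 4 lower. The upper ends of 7, 2 and 4 came without SE mouse 2. Among these 12 fits the Mfsd2a call between controls was kept only without mutant control mouse 3 and without mutant mouse 2 with pilocarpine. Among the other alternatives that count was 0 with only the groups compared, with all probe sets of the table, with Xist as a covariate and at the study's limits. At those limits limma called 1 gene higher (Apold1) and 0 lower in SE, 0 higher in mutants, and 0 higher in the difference of effects. With array weights 1 gene was lower in mutants, and by the rule of no overlap, chosen after seeing the data, 8 genes were lower in SE. The difference of effects had 2 genes higher, Ocln and Pdgfrb, with a trend and robust prior, with probe sets above the median level (32 of the 33 genes), with quantile normalization, with the mean of all probe sets of a gene and with Xist as a covariate. The cause of these shifts was not tested. Each of the 33 genes had exactly 1 probe set. The fits above the median level and with the mean of all probe sets therefore left the levels of Pdgfrb as they were. Only the other probe sets in those fits changed. In SE and in mutants the counts among the 33 genes were the same after median centring of the arrays and after quantile normalization, while of all tested probe sets 5.19% were then higher and 4.82% lower in SE with median centring, and 1.01% higher and 0.756% lower in mutants with quantile normalization. Of 37 gene and comparison pairs called, 24 kept their call in every alternative at the 0.05 limit, and 0 called values changed sign.

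With animal number as a replicate block, limma counted 4 rising and 4 falling genes in SE, 1 and 0 in mutants, 1 and 0 between controls, and 1 and 1 for the difference of effects, as without it. Deviations of animals with the same number correlated weakly and with both signs, at -0.312 to 0.145 over 9 pairs. Mutants with pilocarpine were not compared with SE mice in this check. With so few mice per group, these values cannot decide whether the numbers pair the mice. The block took away the calls of Nrp2 and Cx3cr1 in SE, of Apcdd1, Lamc1 and Sostdc1 in mutants with pilocarpine, and of Sostdc1 in the difference of effects.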
